A study of Drosophila melanogaster with 14 samples.

Results

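The 231 regions described here are 1-kb bins of Drosophila melanogaster euchromatin, the gene-rich part of the chromosome arms, in which polyadenylated RNA was lower in ovaries with germline knockdown of Cutoff. They were chosen from 89009 bins that start between 0.1 and 20 Mb of 2L, between 0.1 and 22 Mb of 3L, from 1 Mb onwards on 3R, or between 0.1 and 20.4 Mb of X, in the dm3 build. A bin was taken where its level averaged at least 1 RPKM (reads per kb and per 1000000 library reads) over the 2 poly(A) libraries and where shCuff + 1 over shWhite + 1 was at most 0.5. Of the 14018 bins that reached this level, 231 (1.65%) met the ratio. The poly(A) values chose the bins, so they are given as a description and support nothing; the 3 comparisons the choice did not use are the 2 pairs of total RNA libraries and nuclear run-on.

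Cutoff, the product of cuff, is a germline nuclear protein that acts with Rhino and Deadlock on dual-strand piRNA clusters, heterochromatic loci whose transcripts are cut into the small RNAs that silence transposons. It is known for letting RNA polymerase II read through termination signals in those loci. Most euchromatic mRNA genes use canonical promoters and poly(A) sites and are not bound by this complex, so the bins below lie outside its best known targets. Total RNA and poly(A) RNA measure the RNA that has accumulated, while run-on measures polymerases engaged on the DNA.

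All libraries were from ovaries of adults 3 to 14 days old. Knockdown ovaries (shCuff) carried the germline driver P{GAL4::VP16-nos.UTR}CG6325MVD1 and the short hairpin TRiP.GL00054 at attP2. The shWhite controls of poly(A) and total RNA carried the same driver with TRiP.HMS00017 at attP2, which targets white (an eye pigment gene), so both groups held a driver and a hairpin. The run-on control was w[1118] with the driver and no hairpin. The driver is active in germ cells, whereas ovaries also contain somatic follicle cells, and in such bulk tissue fewer cells of a type and less RNA per cell cannot be told apart. Each group had 1 library of poly(A) RNA or of run-on, without replicates. Total RNA had 2 per group, one in a first set (AC in the titles, with poly(A) RNA) and one in a second set (ES, with run-on). Of 14 samples in the series, 8 were analysed here and 6 were not analysed here.

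The poly(A) libraries held 8366673 and 10932667 reads, the total RNA libraries 2950394 to 7344631, and the run-on libraries 2438627 and 2511888. A bin without reads could still hold up to 3 reads by counting error, which is 0.274 to 1.23 RPKM depending on the library. One library stood apart: in shCuff replicate 2 of total RNA 8.37% of the covered bins held 1 to 3 reads, against 30.2% to 44.4% in the other 7, so its zeros and its low values are less certain. Results of total RNA are therefore given for each pair. The chorion gene regions at X 7F and 3L 66D, windows placed from background knowledge as marks of late follicle cells, took 1.25% to 5.73% of the reads of each RNA library, and each window held 1 of the bins described here. The 66D window was higher in shCuff in each RNA pair, at 1.63% and 2.95% of reads in poly(A) RNA, 1.25% and 2.34% in total RNA of the first set and 1.65% and 2.32% in the second. The 7F window differed chiefly in the second set, at 2.49% in shWhite and 5.73% in shCuff. The part of this in the results below was not tested. The place of white, also from background knowledge, held 0 of the bins; its RNA was lower in the shWhite library of each pair, at 67.3 and 276 reads per 1000000 in poly(A) RNA, 77.4 and 301 in the first total RNA pair and 14.8 and 101 in the second.

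In poly(A) RNA the bins spanned 1.79 to 374 RPKM in shWhite, with a median of 8.25, and 0 to 123 RPKM in shCuff, with a median of 1.55. The 14018 bins as a whole had medians of 9.20 and 9.79. Of the 231, 12 reached 100 RPKM in shWhite, where 1097 of the 14018 did. No poly(A) reads at all were found in shCuff in 33, which are all such bins among the 14018. A bin that reaches the level without shCuff reads always meets the ratio. Just inside the threshold lay the bins 3R:19879001, 3R:14986001 and X:9050001, with ratios of 0.4997, 0.4993 and 0.4988 on the RPKM + 1 scale. Just outside it lay X:17037001, 2L:13405001 and X:17039001, at 0.5006, 0.5015 and 0.5019. X:17037001, at 166.7 RPKM in shWhite and 83.0 in shCuff, is an abundant bin that missed by this margin.

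**Figure D1:**
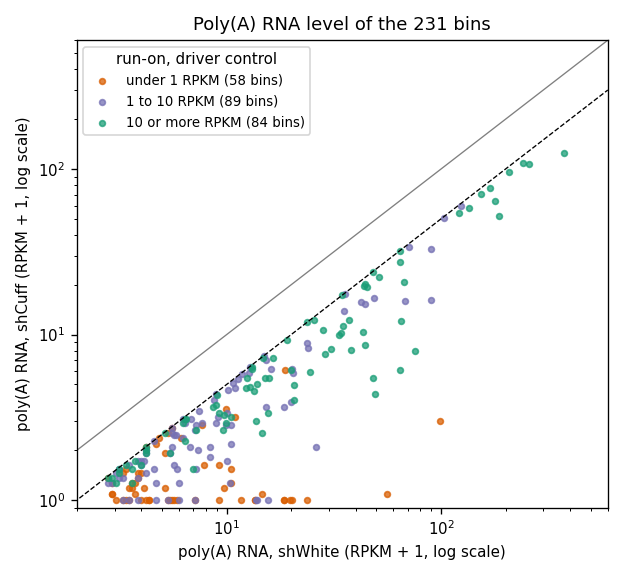
Poly(A) RNA of the 231 bins in shWhite (x) and shCuff (y), both as RPKM + 1 on log scales, 1 point per bin, coloured by the run-on level of the driver control. The solid line marks equal levels and the dashed line the ratio of 0.5 that chose the bins; bins with little run-on signal (under 1 RPKM, 58 bins) include many at or near 0 in shCuff.

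The bins were spread over all 4 arms, with 52 on 2L, 50 on 3L, 74 on 3R and 55 on X, or 1.90%, 1.53%, 1.77% and 1.44% of the bins that reached the level there. Directly adjacent bins formed 163 runs. Of these, 120 were single bins, 27 had 2 bins, 8 had 3, 7 had 4 and 1 had 5, so that 111 bins (48.1%) lay in runs of 2 or more. The median gap between neighbouring runs of an arm was 313 kb, but 19 of 159 gaps were 10 kb or less. Bins that gained poly(A) RNA by the mirrored rule (at least 2-fold, 356 bins in 283 runs) lay in runs of 2 or more in 34.0% of cases, and their longest run had 4 bins. No annotation of dm3 was used, so runs are named by position and not by gene.

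The poly(A) difference ended close to the edge of the runs. Of the 320 bins directly beside a run, 143 reached a poly(A) mean of 1 RPKM, and their median log2 ratio was -0.19, against -1.50 within the runs. At a distance of 2 kb the median was 0.05 over 112 bins. Because a bin beside a run is by definition one that did not meet the rule, part of this step is fixed by the choice. Total RNA of the replicate 1 pair, which the rule did not use, had medians of -1.32 within the runs, -0.32 beside them and -0.18 at 2 kb. In the replicate 2 pair the medians were -0.50, -0.18 and -0.42 at these places, and in run-on they were -0.50, -0.38 and -0.18, with no such step at the edge.

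**Figure D2:**
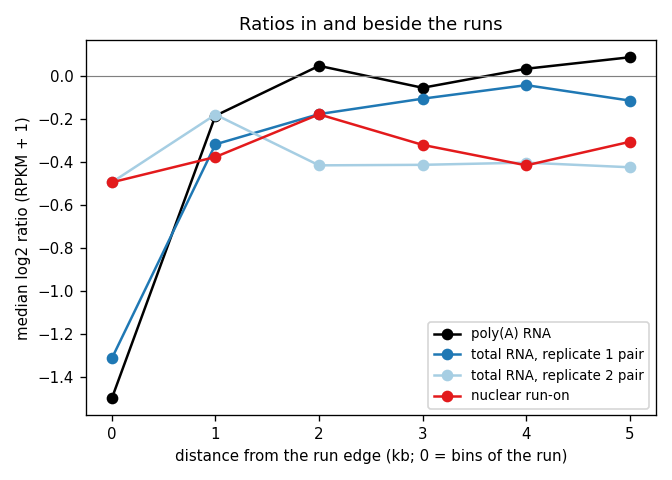
Median log2 ratio of shCuff over control (RPKM + 1) in the bins of the runs (distance 0) and in bins with a poly(A) mean of at least 1 RPKM at 1 to 5 kb from the run edge, both sides together, for the 4 comparisons. Poly(A) RNA and the replicate 1 pair of total RNA start at -1.50 and -1.32 and lie between -0.18 and 0.09 from 2 kb on, whereas the replicate 2 pair and run-on start at -0.50.

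The first question is whether these bins were lower in libraries that did not choose them. In total RNA of the replicate 1 pair, 208 of the 231 bins (90.0%) were below a log2 ratio of 0, against 51.4% of the 14018 bins, and 140 (60.6%) were at least 2-fold lower on the RPKM + 1 scale, where 2.78% of all bins were. One bin, X:508001, was at least 2-fold higher, against 5.61%, with 0 reads in shWhite and 8 in shCuff. In the second set the share below 0 was no higher than the background. It was 137 bins (59.3%) against 61.9% in the replicate 2 pair and 140 (60.6%) against 65.0% in run-on. A bin without control reads cannot be below 0. Such bins made up 19.5% of the 231 in the replicate 2 pair, against 1.16% of all bins. In run-on they were 13.0% against 1.93%. This lowers the shares of the 231 more than those of all bins. Bins without shCuff reads pull the other way, because any control read then puts them below 0. They made up 30.3% of the 231 in shCuff replicate 2, where zeros are less certain, against 9.74% of all bins. In shCuff run-on they were 17.7% against 3.28%. The net effect on the shares was not tested. In the replicate 2 pair the bins went both ways: 81 (35.1%) were at least 2-fold lower, against 26.7% of all bins, and 55 (23.8%) at least 2-fold higher, against 11.2%. In run-on 85 (36.8%) were at least 2-fold lower, against 23.3%, and 34 (14.7%) at least 2-fold higher, against 8.7%. The second set was thus more mixed. In the replicate 2 pair both the lower and the higher share stood above the background. The lower share did so by less than in the replicate 1 pair. A bin under 1 RPKM in shWhite replicate 2 cannot be 2-fold lower on the RPKM + 1 scale. Of the 231 bins 80 were under this level, against 729 of the 14018, which limits the lower share of the 231 more.

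As a median over the bins, the log2 ratio was -1.32 in the replicate 1 pair, where all bins had -0.02, -0.50 in the replicate 2 pair, where all bins had -0.31, and -0.50 in run-on, where all bins had -0.36. With each of the 163 runs counted once they were -1.10, -0.23 and -0.38. The second-set medians then lay above or beside the per-bin background, which was not grouped into runs, so these are not like for like. The replicate 1 pair belongs to the same set of libraries as the poly(A) pair, and the labels do not say whether poly(A) and total RNA of that set came from the same ovaries. Across the 231 bins the log2 ratio of poly(A) RNA followed that of the replicate 1 pair (Spearman's rho 0.75) but not that of the replicate 2 pair (-0.22) or run-on (0.04). These values describe bins that share libraries and were chosen on one of the 2 axes.

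**Figure D3:**
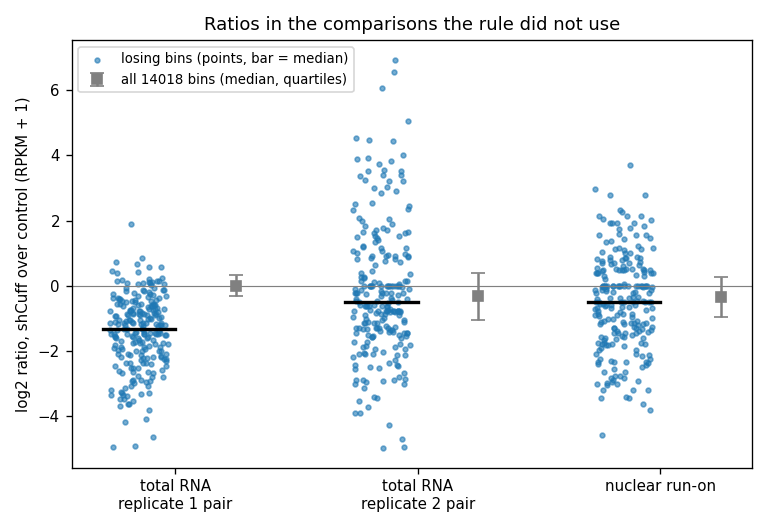
Log2 ratio of shCuff over control (RPKM + 1) of the 231 bins, 1 point per bin with the median as a bar, beside the median and quartiles of all 14018 bins, in the 3 comparisons the rule did not use. Most points of the replicate 1 pair lie below 0 (208 of 231), whereas those of the replicate 2 pair reach from -4.99 to 6.94.

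The bins differed in how much they were transcribed in control ovaries. In the run-on of the driver control, 58 of the 231 bins (25.1%) were under 1 RPKM, 89 had 1 to 10 RPKM and 84 had 10 RPKM or more. Of all 14018 bins, 4.32% were under 1 RPKM, and the median was 17.2 RPKM, against 5.74 in the bins described here. The shWhite library of the replicate 2 pair was low as well, with a median of 3.69 RPKM against 16.7 over all bins and with 45 bins without reads. In shWhite replicate 1 the medians were closer, at 8.04 and 9.83 RPKM. The bins were therefore low in controls outside the first set compared with other bins that reached the poly(A) level.

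The shares of lower and higher bins in the replicate 2 pair differed with this level. Among the 84 bins with 10 RPKM or more in run-on, 48 (57.1%) were at least 2-fold lower in the replicate 1 pair, against 1.55% of the 9471 bins of that level, and 42 (50%) in the replicate 2 pair, against 26.4%. In the other direction, 1 was at least 2-fold higher in the replicate 1 pair, against 4.84%, and 4 in the replicate 2 pair, against 9.86%. Among the 58 bins under 1 RPKM, 40 (69.0%) were at least 2-fold lower in the replicate 1 pair, against 12.2% of the 605 bins of that level. In the replicate 2 pair 31 of these 58 (53.4%) were at least 2-fold higher, against 19.8%, and 6 were lower, against 21.2%. The lower count is limited by bins under 1 RPKM in shWhite replicate 2, which cannot be 2-fold lower. How many of the 58 were under that level was not counted, so the low count of 6 says little about direction. In the replicate 1 pair none of the 58 was 2-fold higher, against 13.7%. The 89 bins between these levels were mixed. In the replicate 1 pair 52 were at least 2-fold lower, against 4.26%, and 0 higher, against 6.24%. In the replicate 2 pair 33 were lower, against 28.2%, and 20 higher, against 13.0%. The split at 1 and 10 RPKM was set after the values were seen, and the bins of a run share their source.

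**Figure D4:**
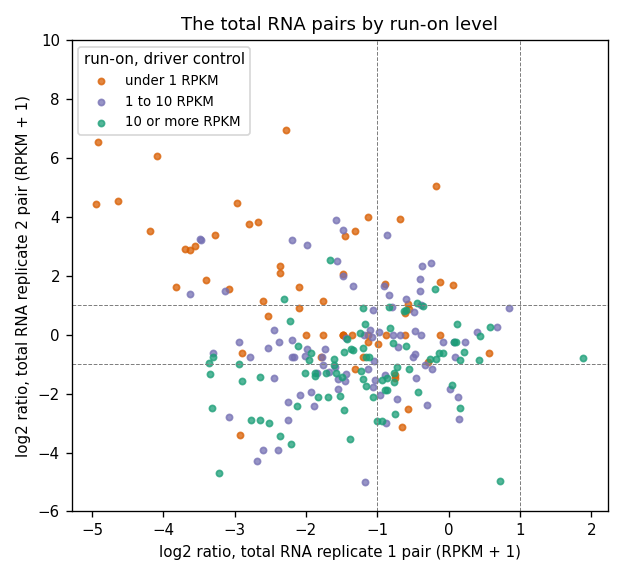
Log2 ratio of shCuff over shWhite (RPKM + 1) in the replicate 1 pair (x) and the replicate 2 pair (y) of total RNA, 1 point per bin, coloured by the run-on level of the driver control, with dashed lines at 2-fold. Bins with 10 RPKM or more in run-on gather in the lower left, and those under 1 RPKM in the upper left, where 38 bins were 2-fold lower in the first pair and 2-fold higher in the second.

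One kind of bin was lower throughout. Of the 231 bins, 52 (22.5%) were at least 2-fold lower in both total RNA pairs, against 0.992% of all 14018 bins. In the replicate 1 pair, of the set that chose the bins, 140 of the 231 and 389 of the 14018 were 2-fold lower. Of these, 52 and 139 were also lower in the replicate 2 pair, which are similar shares. The contrast with all bins thus came mostly with the replicate 1 pair. Among the 52, 34 bins (14.7% of the 231) in 21 runs were also at least 2-fold lower in run-on, against 0.421%. Their median level went from 29.3 to 4.75 RPKM and from 19.7 to 2.59 RPKM in the total RNA pairs, and from 18.0 to 1.59 RPKM in run-on. A bin under 1 RPKM in the driver control cannot be 2-fold lower on the RPKM + 1 scale, so the 34 hold none. Some of the 34, among them 3R:16839001, X:10773001 and X:10776001, held 0 reads in shCuff replicate 2, where zeros are less certain. Their place in this group rests in part on those zeros.

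The longest run, of 5 bins on X from 10772001 to 10777000, held 4 bins of this kind; in the remaining bin, X:10774001, run-on was 20.1 RPKM in the driver control and 12.7 in shCuff. The level of the whole run was 33.3 RPKM in poly(A) RNA of shWhite and 6.31 in shCuff, 39.5 and 5.08 in the first total RNA pair, 17.5 and 2.04 in the second, and 56.8 and 9.71 in run-on of the driver control and of shCuff. Each control library was thus above its shCuff partner and above all 4 shCuff libraries. The ratio of reads scaled to library size was 0.129 (95% exact conditional interval 0.100003 to 0.164) in one total RNA pair and 0.117 (0.0903 to 0.149) in the other, and 0.171 (0.140 to 0.207) in run-on; these intervals cover counting error only. A further bin that was at least 2-fold lower in the same 3 comparisons, X:10784001, lay nearby.

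A run of 4 bins on 3R from 3371001 to 3375000 had 38.5 and 3.00 RPKM in poly(A) RNA of shWhite and shCuff, 46.5 and 3.98 in the first total RNA pair, 18.7 and 5.79 in the second, and 19.4 and 1.89 in run-on. All 4 pairs pointed down, with ratios of 0.0857 (0.0623 to 0.115), 0.310 (0.258 to 0.371) and 0.0976 (0.0575 to 0.157) in the 3 comparisons not used. A run of 3 bins on 2L from 2242001 to 2245000 had 62.0 and 12.5 RPKM in poly(A) RNA, 78.3 and 11.9 in the first total RNA pair, 37.7 and 1.91 in the second, and 9.29 and 1.19 in run-on. Every shCuff library was again below its control, all 3 bins were of this kind, and run-on rested on 68 and 9 reads. On 3R, the run from 16818001 to 16821000 had 24.8 and 7.29, 36.8 and 8.25, 28.7 and 6.17, and 30.8 and 6.50 RPKM in the same order, and a pair of bins further on, from 16838001 to 16840000, had 15.4 and 4.48, 14.4 and 5.25, 14.9 and 1.29, and 28.9 and 4.58.

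Among other long runs, the X run from 5883001 to 5887000 had total RNA ratios of 0.133 (0.0883 to 0.193) and 0.411 (0.350 to 0.482) and a run-on ratio of 0.195 (0.130 to 0.285). The 2L run from 19066001 to 19070000 had 0.548 (0.386 to 0.770), 0.247 (0.176 to 0.340) and 0.294 (0.198 to 0.428). The 3L run from 19991001 to 19994000, with 83.5 RPKM in shWhite of the second set, had 0.520 (0.437 to 0.616), 0.473 (0.435 to 0.515) and 0.628 (0.508 to 0.774). The X run from 1367001 to 1371000 had 0.244 (0.155 to 0.372) in the replicate 1 pair but 0.662 (0.510 to 0.859) in the replicate 2 pair, with 0.256 (0.156 to 0.405) in run-on. For the 3R run from 3586001 to 3590000 the low value of the first set, 0.155 (0.0892 to 0.255), was not matched in the second, where 0.684 (0.464 to 1.01) and a run-on ratio of 0.672 (0.347 to 1.27) have intervals that include 1.

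**Figure D5:**
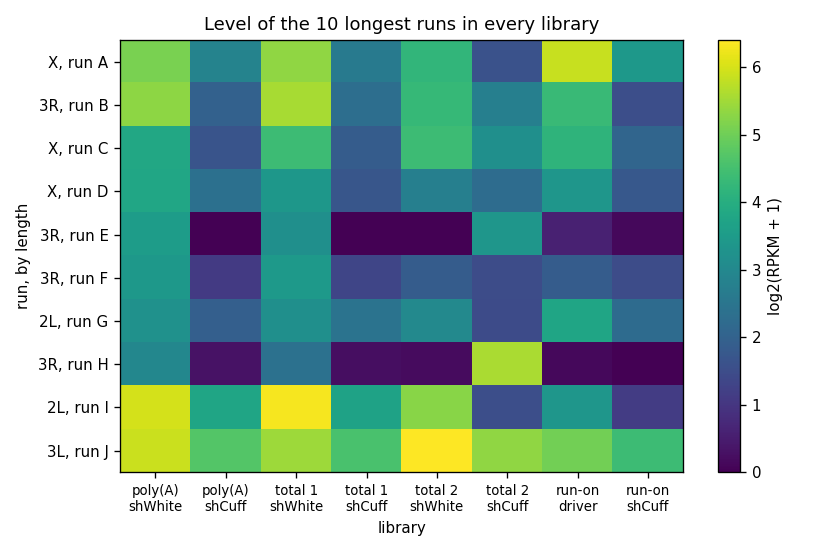
Level of the 10 longest runs in the 8 libraries as log2(RPKM + 1), with 1 row per run (A, the 5-bin run on X, to J, the 3-bin run on 3L from 19991001) and 1 column per library; total 1 and total 2 are the total RNA pairs. In runs A to D, F, G, I and J every shCuff column is darker than its control, whereas E and H, on 3R from 26312001 and 25748001, are near 0 in 5 libraries each and bright in shWhite of the first set and in shCuff of the second total RNA pair.

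The test over all bins of total RNA called few of them. Of the 231 bins, 205 had a mean of at least 1 RPKM over the 4 total RNA libraries and were tested among 27388 bins, and 26 were not. By edgeR's quasi-likelihood test with a term for library set and Benjamini-Hochberg adjustment, 6 of the 205 fell and none rose, nor did any rise by DESeq2 or limma; over all bins 8 fell (0.0292%) and 21 rose (0.0767%). At an unadjusted p under 0.05, 49 of the bins were lower and 1 higher, against 2.58% and 2.04% of all bins. The 6 bins were 2L:2243001, 2L:2244001, 3R:3372001, 3R:16818001, X:10772001 and X:10773001, all within runs described above. A bin can pass the level filter through the group in which it is high, so the count of bins tested is no support in itself. The test also includes the replicate 1 pair, of the set that chose the bins, which followed poly(A) RNA across them (Spearman's rho 0.75). The excess of calls and of low p-values over all bins is therefore not independent of the choice.

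In X:10773001, the shWhite libraries of total RNA held 165 and 142 reads and the shCuff libraries 13 and 0 (log2 change -5.03 ± 0.91 SE by edgeR, adjusted p = 0.00815). The 0 is from shCuff replicate 2, where zeros are less certain, so the size of this change is too. In 2L:2244001, shWhite held 325 and 224 reads and shCuff 42 and 8 (log2 change -3.82 ± 0.64 SE by edgeR, adjusted p = 0.00289). Its neighbour 2L:2243001 had 370 and 268 reads against 51 and 16 (log2 change -3.49 ± 0.58 SE by edgeR, adjusted p = 0.00289). In 3R:3372001, 347 and 193 reads stood against 28 and 38 (log2 change -3.07 ± 0.56 SE by edgeR, adjusted p = 0.00838). The other 2 had adjusted p-values of 0.0378 (3R:16818001, log2 change -3.15) and 0.0403 (X:10772001, log2 change -3.12) by edgeR. Both shCuff libraries lay below both shWhite libraries in each of the 6. With TMM factors or without the term for set edgeR called none of these 6, whereas DESeq2 and limma called all 6. Fits that left out 1 of the 4 libraries also lacked the term for set and had 1 library in a group, so their calls say little.

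A second kind of bin had opposite signs in the 2 sets. Of the 231 bins, 38 (16.5%) in 28 runs were at least 2-fold lower in the replicate 1 pair and at least 2-fold higher in the replicate 2 pair, against 0.528% of all bins. Their median level was 7.47 RPKM in poly(A) RNA and 7.0 in total RNA of shWhite in the first set, and 0 in both shCuff libraries of that set. In the second set it was 0 in shWhite and 8.37 in shCuff. In 20 of the 38 bins the 2 shCuff libraries of the first set and the shWhite library of the second held no read at all. Run-on was at a median of 0.410 RPKM in the driver control and 0.398 in shCuff, and 25 of the 38 were under 1 RPKM in that control. The opposite signs are what chose these 38 bins, so the levels are a description.

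The 3R run from 26312001 to 26316000 held 352 poly(A) reads in shWhite and 0 in shCuff, 109 and 0 reads in the first total RNA pair, and 0 and 273 in the second. Run-on had 5 reads in the driver control and 1 in shCuff over these 4 kb. The 3R run from 25748001 to 25752000 went from 228 to 11 poly(A) reads and from 57 to 2 reads in the first total RNA pair, while the second had 3 in shWhite and 1396 in shCuff. Run-on had 1 and 0 reads there. In both runs 3 RNA libraries were high and 3 at or near 0, and the high group mixes both hairpins.

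On 3L, 2 neighbouring runs behaved the same way. The run from 6045001 to 6048000 had 293 and 0 poly(A) reads, 99 and 0 in the first total RNA pair, 0 and 555 in the second, and 0 and 2 in run-on. The run from 6054001 to 6056000 had 295 and 0, 120 and 0, 1 and 242, and 0 and 1. The single bin 2L:4950001, among the 10 most abundant runs in poly(A) RNA of shWhite, went from 820 to 22 poly(A) reads and from 271 to 5 in the first total RNA pair, but from 1 to 804 in the second, with 1 and 0 run-on reads. The bin 3L:9634001 went from 461 to 1, from 170 to 2 and from 5 to 292, and from 0 to 17 reads in run-on. A loss of RNA in shCuff in these bins rests on the first set alone, and what the libraries with reads share was not tested. No gene was assigned to them and run-on was under 1 RPKM in most, and whether this RNA was made in the ovary was not tested.

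The 10 most abundant runs in poly(A) RNA of shWhite were not alike in the second set. The bin 3L:9502001 had 374 and 123 RPKM in poly(A) RNA, 89.3 and 65.8 in the first total RNA pair, 26.7 and 57.3 in the second, and 23.0 and 35.8 in run-on. Its poly(A) level in shWhite was thus the highest of the 231 bins, while both second-set comparisons were higher in shCuff. The 2-bin run on 3R from 6682001 to 6684000 had 204 and 91.7, 288 and 95.4, 129.8 and 57.0, and 39.0 and 20.7 RPKM, with every shCuff library below its control. The 2-bin run on X from 1967001 to 1969000 did the same, at 120.2 and 44.9, 130.0 and 46.8, 78.1 and 24.0, and 26.5 and 8.56 RPKM. In the bin 2L:1724001 the total RNA ratio was 0.738 (0.605 to 0.899) in the first pair and 0.0704 (0.00803 to 0.286) in the second, where 22 reads faced 2, and run-on was 1.48 (1.10 to 1.997).

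Run-on and accumulated RNA parted in some runs. Only 2 bins (0.866%) were at least 2-fold lower in both total RNA pairs and 2-fold higher in run-on, against 0.107% of all bins. Both lay on 3L. In 3L:12517001 the run-on ratio was 2.31 (0.964 to 6.09). The other, 3L:9364001, lay in a run with 2 other runs nearby. In these runs poly(A) RNA and the replicate 1 pair were lower but run-on was higher in shCuff. In the run from 9364001 to 9366000 the total RNA ratios were 0.0985 (0.0438 to 0.194) and 0.314 (0.201 to 0.479), while run-on went from 11.5 to 61.3 RPKM, a ratio of 5.34 (4.01 to 7.23). In the run from 9367001 to 9369000 they were 0.251 (0.210 to 0.298) and 0.792 (0.667 to 0.939), and run-on went from 96.2 to 231.1 RPKM, a ratio of 2.40 (2.16 to 2.68). In 3L:9375001 they were 0.443 (0.389 to 0.504) and 1.29 (1.14 to 1.46), with a run-on ratio of 1.39 (1.22 to 1.57). The run-on control lacks a hairpin, and this difference in genotype and the knockdown cannot be told apart there.

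Among runs with at least 20 run-on reads, the highest run-on ratio was that of X:16181001, at 11.7 (3.68 to 59.1) from 3 and 36 reads, followed by the X run from 4621001 to 4623000 at 6.31 (2.65 to 18.2). The lowest was that of 3L:19857001, with 24 reads in the driver control and 0 in shCuff. That bin held no read in any of the 4 shCuff libraries, against 19 in poly(A) RNA and 12 and 4 in total RNA of shWhite. A bin close to it, 3L:19854001, had a run-on ratio of 0.0455 (0.00914 to 0.139) and total RNA ratios of 0.330 (0.138 to 0.711) and 0.626 (0.335 to 1.16). The only other run without reads in all 4 shCuff libraries was 3L:7396001, which had reads in the first set of shWhite alone, 25 in poly(A) and 10 in total RNA.

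A further 50 bins (21.6%) were at least 2-fold lower in the replicate 1 pair and within 2-fold in the replicate 2 pair, against 1.26% of all bins. None of the 231 was at least 2-fold higher in both pairs, where 1.14% of all bins were. Only 1 was 2-fold higher in the replicate 1 pair, of the set that chose the bins, so at most 1 could be higher in both. The run 3L:16556001 came nearest among those with at least 20 reads over each pair, with ratios of 2.13 (0.849 to 5.81) and 2.40 (1.15 to 5.49) and a run-on ratio of 4.02 (2.22 to 7.81). The others with a high mean over both pairs, 3R:25748001, 3R:22928001, 3R:25498001 and 2L:4950001, owed it to the replicate 2 pair, with ratios of 360.4, 11.8, 7.49 and 622.7 that rest on 1 to 22 reads in shWhite.

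The 356 bins that gained poly(A) RNA, 2.54% of the 14018, are set beside the losing ones. Of the gaining bins, 62 (17.4%) were at least 2-fold higher in both total RNA pairs, against 1.14% of all bins. That 0 were lower in the first pair and higher in the second says little, because the rule took bins higher in the first set. The mirrored pattern, higher in the first pair and lower in the second, was not counted. In run-on the median log2 ratio of the gaining bins was 0, against -0.50 in the losing bins. Of the gaining bins, 63 (17.7%) were under 1 RPKM in the driver control, against 25.1%. The mirrored rule chose them from the same libraries, so these values are given side by side with no test.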

How the data were processed

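The 8 deposited tables give reads in 168744 bins of 1 kb of dm3. Column 6 held the authors' counts, whole in the first set and estimated counts in the second, where 1 to 8 bins were not whole and were rounded. Column 5 held the deposited RPKM, scaled to each library's total. Cutadapt and Bowtie 0.12.7 were used, per the submitters' processing notes; how reads were filtered or multiply mapping reads handled is not given in these sources. The values carry no strand.

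The bins and lists were chosen with earlier results of these data known; runs were named by length, poly(A) level, run-on ratio, mean total RNA ratio, test calls and lack of reads in all 4 shCuff libraries, and others after their values were seen. Total RNA was tested with edgeR 4.0.16 (R 4.3.3) over 27388 bins averaging 1 RPKM or more, with terms for genotype and library set and 1 residual degree of freedom. The set is the replicate block: deviations of libraries of 1 set correlated at 0.587. The labels do not say that replicates came from separate flies, so p-values cover only library-to-library spread, possibly technical. Other comparisons had 1 library per group and no test; ratios have 95% exact conditional (Clopper-Pearson) intervals. Alternatives used TMM, DESeq2 1.42.0, limma 3.58.1, other filters and pseudocounts and left-out libraries. The gene table at hand is of Release 6, so no gene names were assigned, and cuff itself was not analysed here.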

Additional observations from a re-analysis of the deposited data

Results flagged for a closer look

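Of the 231 bins, 38 were at least 2-fold lower in poly(A) RNA and in total RNA of the first set but at least 2-fold higher in total RNA of the second set, which is why they are listed; the difference between the sets was not tested. Another 2 bins, 3L:9364001 and 3L:12517001, were at least 2-fold lower in both total RNA pairs and at least 2-fold higher in run-on. They had 4.92 and 3.28 RPKM in run-on of the driver control and 40.2 and 7.56 in shCuff, and this difference was not tested either. In 3L:9364001 run-on rested on 12 and 101 reads. In 3L:12517001 it rested on 8 and 19 reads, and the ratio of 2.31 (0.964 to 6.09) has an interval that includes 1.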

How the results depend on the processing

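The number of bins and runs depended on the rule: 412 bins in 326 runs with a pseudocount of 0.1 RPKM, 116 in 87 with a mean of at least 5 RPKM, and 62 in 40 with a ratio of at most 0.25. Among bins with at least 1 RPKM in run-on of the driver control, an alternative chosen after seeing the data, 71.7% were lower in the replicate 2 pair, against 62.5% of the 13413 bins of that level; without this limit it was 59.3% of the 231, against 61.9% of the 14018. The 6 bins called lower in total RNA became 0 with TMM factors (53 lower at an unadjusted p under 0.05 by edgeR), 0 without the replicate block (10 lower at an unadjusted p under 0.05), 16 and 20 with limma and pseudocounts of 1 and 0.1 RPKM, 10 with no filter and 7 with DESeq2. Fits that left out 1 library also lacked the replicate block, and the lone library was assumed to vary like the other group. The effect of the library and that of the block cannot be told apart there. Log2 changes of the 6 stayed negative in all 11 fits, from -10.7 to -2.18, with edgeR, DESeq2 or limma adjusted p-values from 2.43e-07 to 1. The median log2 ratio of the replicate 2 pair, -0.50, was -0.23 with each run counted once and -0.78 with a pseudocount of 0.1 RPKM. All bins, not grouped into runs, had -0.31, below the -0.23. In run-on the median was -0.38 with each run counted once and -0.67 with that pseudocount. With that pseudocount 73 bins rather than 52 were lower in both total RNA pairs and 47 rather than 34 also in run-on. At this depth, 187, 184 and 169 of the 231 bins had at least 10 reads over the replicate 1, replicate 2 and run-on pairs.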
